A study of Mus musculus with 15 samples.

Results

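H3K4me2 in newborn mouse lens was set beside H3K4me2 in αTN4 cells, a cultured mouse lens epithelial line, over the whole genome. The members were all H3K4me2 peaks of either source, 56214 from lens and 66274 from αTN4, or 122488 of the 291642 regions in the 9 lists of regions of the series that were read here. A peak was called shared when it had at least 1 bp in common with a peak of the other list, and otherwise lens-only or αTN4-only. The lens chromatin came from CD-1 mice at postnatal day 1. It is whole tissue, so that epithelium, fibre cells and anything dissected with them contribute, and the number of animals is not given. The αTN4 cells were transformed with the SV40 T antigen, carried a control shRNA delivered by lentivirus, and were kept under puromycin as a stable population in DMEM F-12 with 10% FBS. The labels give the same antibody and lot for both libraries. Each source is represented by 1 library, so that no replicate error and no p-value between lens and αTN4 can be given, and tissue, culture, transformation, shRNA vector and library cannot be told apart. Peak names of the αTN4 list speak of both replicates, which may have been pooled, and the read depth of both libraries is unknown.

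Dimethylation of lysine 4 of histone H3 is placed by the Set1 and Mll enzymes. It covers the nucleosomes around active and poised promoters, where it borders the trimethylated form, and it marks enhancers, where it is found with the monomethylated form. The lens is an epithelial tissue without vessels or nerves of its own after birth. A front layer of dividing epithelial cells gives rise to fibre cells, which fill with crystallins and lose their organelles, and Pax6, Sox2, Prox1, Foxe3 and the Maf factors govern this course. In a newborn mouse, a transient net of vessels still surrounds the lens.

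The sequences at the peaks that set the sources apart differed in composition. Each line gives 201 bases of the mm9 plus strand, 5′ to 3′, centred on a peak summit away from promoters and from every annotated exon. Capitals mark the words TGANTCA (the AP-1 word), TGTGGTT (Runx), TAATTA (homeodomain) and CAGCTG (E-box) on either strand. The first 2 are lens-only peaks with a high −log10 q (154.7 and 109.5). Their windows hold the E-box word (chr6:51220514-51220714, 17.2 kb from a start of Gm9953) and the homeodomain word (chr1:135060576-135060776, 32.4 kb from a start of Ppp1r15b). The last 2 are αTN4-only peaks with a high −log10 q (140.9 and 95.28) and an AP-1 word. They lie in an intron of Cd109 (chr9:78470861-78471061) and 111.9 kb from the start of Trib1 (chr15:59592013-59592213). The Cd109 peak is the strongest αTN4-only peak of this kind with or without the word. The other peaks are examples and need not be the strongest with their word over the whole genome.
lens-only near Gm9953: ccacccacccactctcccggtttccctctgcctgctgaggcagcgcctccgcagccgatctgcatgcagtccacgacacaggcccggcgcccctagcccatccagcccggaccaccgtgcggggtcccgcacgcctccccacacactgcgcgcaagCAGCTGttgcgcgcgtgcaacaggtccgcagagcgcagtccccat
lens-only near Ppp1r15b: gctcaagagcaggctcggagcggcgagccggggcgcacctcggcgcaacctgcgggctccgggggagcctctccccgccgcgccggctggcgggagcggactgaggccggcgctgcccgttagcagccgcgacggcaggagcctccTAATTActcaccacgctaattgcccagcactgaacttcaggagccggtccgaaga
αTN4-only in Cd109: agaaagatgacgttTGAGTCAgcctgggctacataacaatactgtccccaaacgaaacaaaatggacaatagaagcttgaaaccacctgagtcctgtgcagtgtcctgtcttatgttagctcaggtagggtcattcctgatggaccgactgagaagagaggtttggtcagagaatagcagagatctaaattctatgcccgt
αTN4-only near Trib1: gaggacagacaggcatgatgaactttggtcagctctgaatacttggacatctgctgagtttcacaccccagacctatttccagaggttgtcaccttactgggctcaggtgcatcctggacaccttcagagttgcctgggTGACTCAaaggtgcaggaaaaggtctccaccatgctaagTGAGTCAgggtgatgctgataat
G and C made up 70.7% and 71.1% of the lens-only windows and 45.3% and 50.2% of the αTN4-only windows. These 4 windows were picked for strength and words, and the counts over all peaks are given with the words at the summits.

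Of the lens peaks, 25512 (45.4%, 95% Wilson interval 45.0 to 45.8) were shared and 30702 were lens-only. Of the αTN4 peaks, 27349 (41.3%, 40.9 to 41.6) were shared and 38925 were αTN4-only. Both shares rose among strong peaks, to 58.5% and 53.0% with a −log10 q of at least 10 in both lists. Among the 30000 strongest peaks of each list they were 58.1% in lens and 66.2% in αTN4, so the order of the sources turned. These intervals and those that follow cover counting error only. By length, 30.7 Mb lay in peaks of both lists, which is 52.2% of the bases under lens peaks, 41.4% of those under αTN4 peaks and 30.0% of the 102.4 Mb under either. The 1 bp rule decided few peaks. Among lens peaks, 115 shared 1 to 50 bp and 121 missed an αTN4 peak by at most 50 bp, and the corresponding αTN4 counts were 89 and 101. Most one-sided peaks lay far from the other list, with 56.1% of lens-only and 59.5% of αTN4-only peaks more than 10 kb from its nearest peak.

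Sharing rose with peak strength in both lists. Fold enrichment is the authors' ratio of signal at the summit over local background, and each list was divided by it into 10 groups of equal size (deciles). In the weakest decile, 19.2% of lens peaks and 9.23% of αTN4 peaks were shared. In the strongest decile, the shares were 90.9% and 97.2%. The steepest part of both curves lay between deciles 6 and 8, from 35.3% to 76.5% in lens and from 29.8% to 73.8% in αTN4. One-sided peaks were accordingly weaker and narrower. Each peak was given a rank within its own list by fold enrichment, from 0 for the weakest to 100 for the strongest, since folds of different libraries cannot be compared directly. The median rank was 34.9 for lens-only and 33.4 for αTN4-only peaks, against 73.7 and 77.7 for the shared peaks of lens and αTN4. The median width was 479.5 bp for lens-only peaks and 633 bp for αTN4-only peaks, against 1243 and 1280 bp for shared peaks. A −log10 q under 5 was found in 23.1% of lens-only and 19.5% of αTN4-only peaks, and in 6.45% and 3.09% of shared peaks. In the strongest decile of the lens list, 512 peaks were still absent from αTN4, and 189 of the strongest αTN4 decile were absent from lens.

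**Figure D1:**
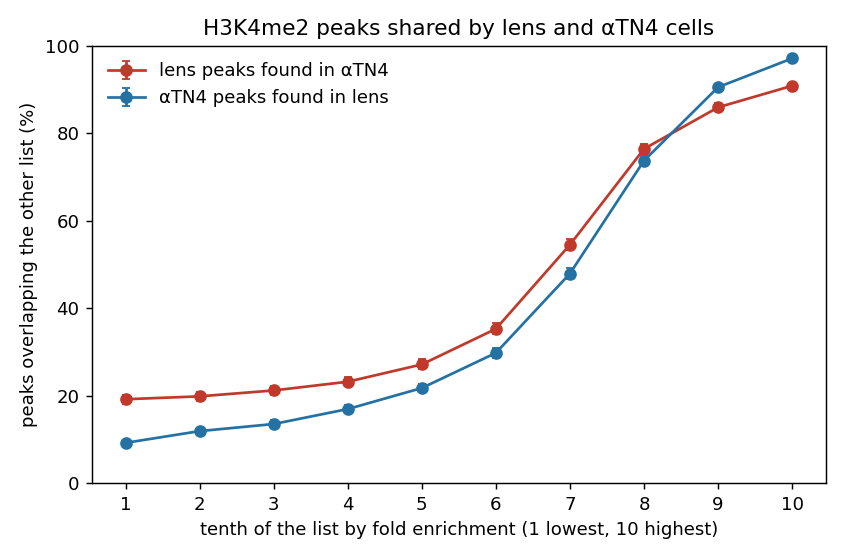
Share of H3K4me2 peaks that overlap a peak of the other list (y axis, %) by deciles of fold enrichment within each list (x axis), for lens peaks (red) and αTN4 peaks (blue), with 95% Wilson intervals. The share climbs from 19.2% to 90.9% in lens and from 9.23% to 97.2% in αTN4, and the curves cross between deciles 8 and 9.

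Where a peak of each list met only the other, the marked stretch was much alike. There were 17646 such pairs, with a median width of 1141 bp in lens and 1281 bp in αTN4. In 77.8% of them the widths lay within 2-fold, and the summits were a median of 142 bp apart. In 71.0% of pairs the ranks lay within 20 points, and the Spearman correlation of fold over pairs was 0.62, which is across peaks and comes with no replicate. In 349 pairs the lens peak ranked 50 points or more above the αTN4 peak, and in 524 pairs the reverse held. The widest peak of both lists covered Pax6, the master regulator of eye development, with 23574 bp in lens and 23886 bp in αTN4. In lens the next widest lay over Cxxc5 and over the homeobox genes Six3 (15686 bp) and Meis1 (15680 bp). In αTN4 they lay over Plec, which encodes the linker protein plectin (21157 bp), Meis2 (18633 bp), Kif21b (17543 bp) and Lmna, the gene of nuclear lamins A and C (17030 bp).

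The most unequal pairs named genes of both sources. Each is named by the gene with the nearest start. At Mn1, a lens peak of 9575 bp met an αTN4 peak of 236 bp, a width ratio of 40.6. Near Cryba4, a β-crystallin gene, 5259 bp in lens met 243 bp in αTN4. That pair lay outside the gene, and the Cryba4 promoter itself had 994 bp under peaks in lens and 3300 bp in αTN4. At Wnt5a, which encodes a signalling ligand, 4003 bp in lens met 231 bp in αTN4, with ranks of 91.2 and 1.99. In the other direction, at Hoxd10 an αTN4 peak of 8270 bp met a lens peak of 205 bp, with ranks of 98.0 in αTN4 and 26.0 in lens. At Crim1, whose product binds bone morphogenetic proteins, 13349 bp in αTN4 met 341 bp in lens. At Ahnak the widths were 6228 and 229 bp, and at Sept9 6145 and 218 bp.

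Other αTN4 lists, which the division into classes had not used, were read at the same regions. H3K4me2 of αTN4 cells with Pax6 knocked down (Pax6 KD), a different stable population from the same line, is no replicate of the control, but its 65852 peaks overlapped 74.2% (73.7 to 74.6) of αTN4-only peaks and 1.20% (1.08 to 1.33) of lens-only peaks. The corresponding share was 93.9% for shared lens peaks and 94.2% for shared αTN4 peaks. On the αTN4 side, 97.3% of the αTN4-only peaks with a −log10 q of at least 10 and 55.3% of the weaker ones recurred. On the lens side the shares were 1.30% and 1.13%. Lens-only peaks lack control αTN4 H3K4me2 by definition, so their low share in the same line is tied to how they were chosen. The lens had no further library to compare with, so how many lens-only peaks would recur in other lenses is unknown.

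H3K4me1 islands of control αTN4 cells covered 74.4% of αTN4-only peaks and 13.9% of lens-only peaks. At shared peaks the share was 53.2% in the lens list and 48.2% in the αTN4 list. H3K4me3 peaks were nearly limited to shared peaks, with 51.8% and 54.6% overlapped, against 0.44% of lens-only and 0.28% of αTN4-only peaks. The list titled RNA polymerase II (Pol2), whose antibody entry in the labels names Pax6 instead, overlapped 55.9% and 59.6% of shared peaks, 4.64% of αTN4-only and 0.50% of lens-only peaks. The αTN4-only peaks thus carried H3K4me1 in αTN4 far more often than H3K4me3 or Pol2, while lens-only peaks carried few marks of any kind in αTN4. All these lists come from αTN4, where αTN4-only peaks carry H3K4me2 and lens-only peaks lack it by definition. The contrast between these classes is therefore tied to how they were chosen. The lens counterparts were not analysed here.

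**Figure D2:**
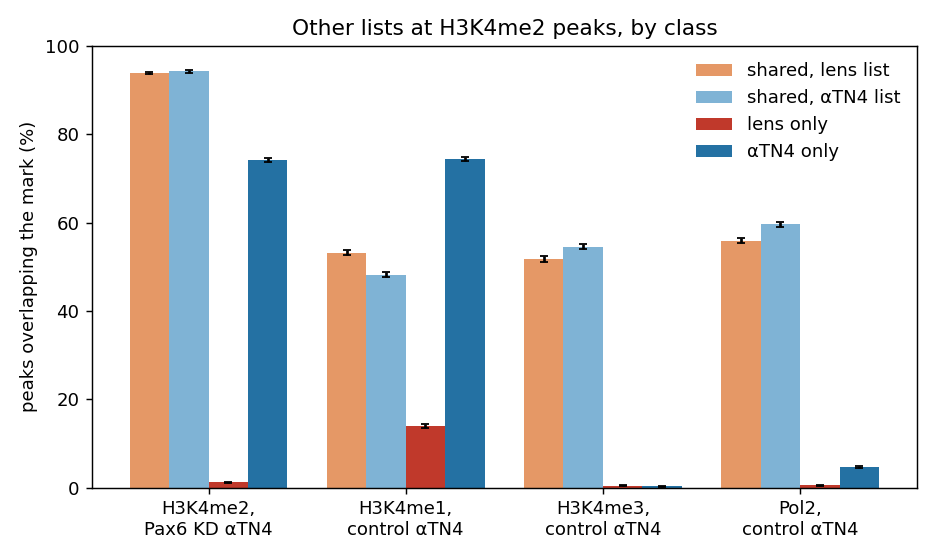
Share of H3K4me2 peaks (y axis, %) that overlap a peak or island of 4 other αTN4 lists (x axis), for shared peaks of the lens list, shared peaks of the αTN4 list, lens-only and αTN4-only peaks. Bars are shares and error bars are 95% Wilson intervals; αTN4-only peaks reach 74.2% for Pax6 KD H3K4me2 and 74.4% for H3K4me1, and lens-only peaks stay at 13.9% or less.

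The classes differed in where they lay. A promoter here is the stretch up to 2 kb to either side of any start annotated for a protein-coding gene, which takes up 4.24% of the genome. Promoters were met by 62.5% of shared peaks in the lens list and 67.8% in the αTN4 list. Of lens-only peaks 17.3% (16.9 to 17.8) met one, and of αTN4-only peaks 6.01% (5.78 to 6.25). Wide peaks reach a promoter window more easily than narrow ones, but the summits showed the same order. Summits lay within 1 kb of a start for 54.4% and 54.1% of shared peaks in lens and αTN4, for 12.5% of lens-only and for 2.82% of αTN4-only peaks. Introns held 42.1% of lens-only and 40.1% of αTN4-only peaks, against 32.9% of the genome. Stretches between genes held 36.9% of lens-only and 52.2% of αTN4-only peaks, against 60.9% of the genome. Away from promoters, the median distance to the nearest start was 35.2 kb for lens-only and 34.4 kb for αTN4-only peaks, and near 22.0 and 23.6 kb for the shared peaks of lens and αTN4.

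**Figure D3:**
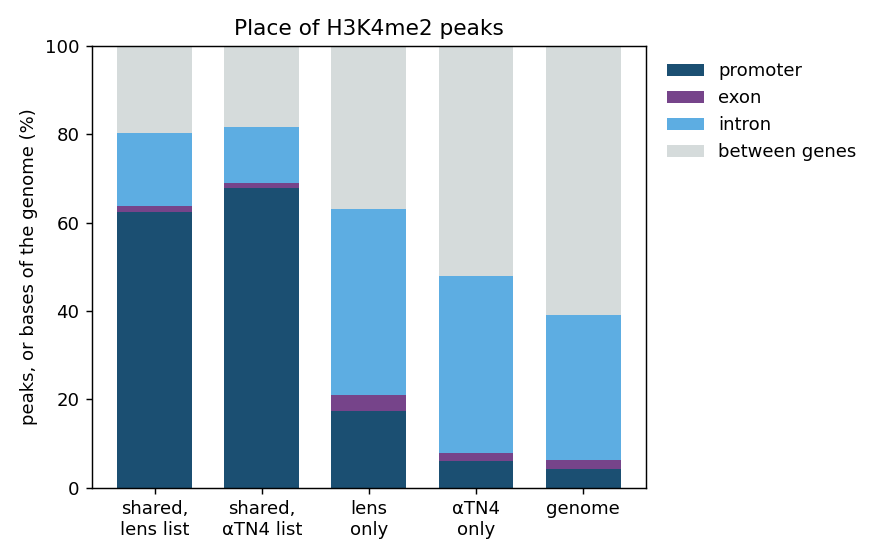
Place of H3K4me2 peaks as a share of each class (y axis, %), stacked by promoter, exon, intron and between genes, for shared peaks of both lists, lens-only and αTN4-only peaks, beside the share of genome bases of each kind. The promoter part shrinks from 62.5% and 67.8% in shared peaks to 17.3% in lens-only and 6.01% in αTN4-only peaks.

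The balance of the one-sided classes varied between chromosomes. Over the whole genome, αTN4-only peaks were already the larger class, with 38925 against 30702 lens-only peaks. Chromosome 15 had 1.96 αTN4-only peaks for every lens-only peak (2134 and 1087) and chromosome 3 had 1.80 (2703 and 1505). Chromosome 12 had 0.65 (1030 and 1595) and chromosome 4 had 0.82 (1943 and 2382). The lens list held 9 peaks on chromosome Y and the αTN4 list held 0. A list of called peaks does not show whether reads fell there.

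By gene, promoters marked in lens alone outnumbered those marked in αTN4 alone. Of 22232 protein-coding genes, 12261 (55.2%) had a promoter peak in both sources, 2605 (11.7%) in lens alone, 694 (3.12%) in αTN4 alone and 6672 (30.0%) in neither. These 4 percentages are the background for every gene group below. Promoters marked in both were strong in each list, at a median rank of 88.3 in lens and 88.5 in αTN4. Those marked in lens alone had a median rank of 72.2 and a median of 1476 bp under peaks. Those marked in αTN4 alone had a median rank of 45.1 and 934.5 bp. Among the promoters marked in both, 190 (1.55%) ranked 50 points or more higher in lens and 34 (0.277%) in αTN4.

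The one-sided promoter states also differed in sequence and in other αTN4 marks. The ratio of observed to expected CpG within 500 bp of the start was at least 0.6 for 79.0% (78.3 to 79.7) of genes marked in both, 47.7% (45.8 to 49.6) of genes marked in lens alone and 2.02% (1.21 to 3.36) of genes marked in αTN4 alone. The last value was close to the 1.56% of genes marked in neither. Pol2 of αTN4 lay at 85.9% of promoters marked in both, 16.1% of those marked in αTN4 alone and 0.96% of those marked in lens alone. H3K4me3 lay at 88.5%, 5.48% and 0.88%, and H3K4me1 at 56.6%, 70.2% and 9.79%. Promoters of the lens-alone state thus lay between the other states in CpG content, with a median ratio of 0.59 against 0.76 for genes marked in both and 0.23 for αTN4 alone, and few carried the αTN4 marks read here. Those of the αTN4-alone state were poor in CpG and mostly within H3K4me1. The states were set by H3K4me2 of αTN4 itself, so their contrast in other αTN4 marks is tied to that choice.

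Crystallins, the structural proteins of the lens, had modest H3K4me2 peaks at their promoters in lens. Of 16 crystallin genes, 5 were marked in both sources, 6 in lens alone, 0 in αTN4 alone and 5 in neither. All 11 marked promoters ranked between 9.76 and 59.8 in lens, below the median of 72.2 for promoters marked in lens alone. The α-crystallin gene Cryaa had a fold of 5.53 in lens (rank 41.2) and 13.9 in αTN4 (rank 76.8), and its partner Cryab had 9.22 (rank 59.8) and 18.9 (rank 90.1). Cryba2 ranked 55.6 in lens and 88.4 in αTN4. In lens alone, the highest ranks belonged to the γ-crystallin genes Crygd (54.0) and Crygc (47.0) and the β-crystallin gene Crybb3 (45.8). The promoters of Cryba1, Cryga, Crygb, Crygf and Crygs had no peak in either list. Around Cryaa, chr17:31813785-31818163 was 1 peak of 4379 bp in αTN4, and lens had 5 separate peaks of 274 to 832 bp over the same gene. The line is known to stem from a mouse with a T antigen transgene under an αA-crystallin promoter, and reads from such a copy and from Cryaa itself cannot be told apart.

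Genes of fibre cells were also marked in lens alone more often than in αTN4 alone. Of 16 such genes, 6 were marked in both, 6 in lens alone, 2 in αTN4 alone and 2 in neither. In lens alone were the beaded filament genes Bfsp1 (rank 61.1) and Bfsp2 (rank 61.5, with 3969 bp under peaks), the water channel gene Mip (45.8), the membrane protein gene Lim2 (57.0), Grifin (49.5) and Birc7 (20.6). In αTN4 alone were Lenep (rank 54.9) and Lctl (rank 9.98). The connexin gene Gja3 was marked in both, at rank 70.0 in lens and 64.8 in αTN4. Aqp5, another water channel gene, was covered by 6667 bp at rank 99.8 in αTN4 and by 391 bp at rank 51.2 in lens. The lens-alone shares of 37.5% for both crystallin and fibre genes stand beside 11.7% of all genes. Such shares were not particular to lens genes. They were higher for markers of liver (4 of 10), muscle (4 of 9), and cornea and surface epithelium (6 of 12). The same held for endothelial (7 of 12), neuron (6 of 10) and retinal neuron markers (9 of 12). Pigment cell (2 of 10) and blood and immune markers (2 of 14) had lower shares.

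Transcription factors of the lens lineage were marked in both sources almost throughout. Of 19 factors found in the annotation, 17 were marked in both and 2 in lens alone. The 2 were Foxe3, which keeps lens epithelial cells dividing (fold 12.6, rank 66.8, 2639 bp under peaks), and Eya1, a partner of homeobox proteins such as Six3 (fold 20.1, rank 79.5). Pax6 ranked 99.2 in lens and 98.7 in αTN4, Six3 98.1 and 99.5, and Mafk 99.7 and 99.9. Prox1, needed for fibre elongation, ranked 79.3 in lens and 98.6 in αTN4, with 8978 and 16952 bp under promoter peaks. Meis1 had 15680 bp under promoter peaks in lens and 8266 bp in αTN4. Of 15 genes for membrane, junction and receptor proteins of lens epithelium, 13 were marked in both. Cdh1, which encodes E-cadherin, was marked in lens alone at rank 91.4, and the water channel gene Aqp1 in lens alone at rank 26.0. Fgfr1 ranked 78.8 in lens and 55.4 in αTN4.

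Hox genes, which pattern the trunk and limbs, leaned the other way. Of 39, 24 were marked in both, 3 in lens alone, 10 in αTN4 alone and 2 in neither, so that 25.6% were in the αTN4-alone state that held 3.12% of all genes. Hox genes lie in clusters and share wide peaks, so they are not separate observations. Hoxa6 (rank 98.3, 8809 bp), Hoxb6 (97.8, 7925 bp), Hoxc8 (94.4), Hoxb13 (90.4) and Hoxc10 (89.3) were among those marked in αTN4 alone. Of those marked in both, Hoxb9 had 14425 bp under promoter peaks in αTN4 and 628 bp in lens. Within 50 kb of the Hoxc9 gene lay 24 αTN4 peaks covering 41.6 kb and 5 lens peaks covering 3.28 kb. Hoxd1, at rank 79.3, and Hoxd4 and Hoxb2 were marked in lens alone.

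Genes of the mesenchymal state were mostly marked in both. Of 23, 19 were marked in both, 1 in lens alone, 2 in αTN4 alone and 1 in neither. The collagen gene Col3a1 (rank 86.6, 4968 bp) and Postn (69.6, 5216 bp) were marked in αTN4 alone. S100a4 ranked 26.0 in lens and 99.8 in αTN4, and Acta2, the gene of smooth muscle actin, ranked 34.9 and 87.1. Col1a1 ranked 69.1 and 98.6. Tagln was marked in lens alone, at rank 32.9. Of the 19 marked in both, 13 ranked higher in αTN4 and 6 in lens, namely Cdh2, Snai2 (92.7 and 80.0), Zeb1, Prrx1, Fn1 and Col1a2. Promoter peaks were wider in αTN4 at 15 of the 19. Among housekeeping genes marked in both, 10 of 15 ranked higher and 12 had wider peaks in αTN4. Of 11 genes of the AP-1 family, 10 were marked in both and Batf in lens alone, at rank 28.6. Jun ranked 94.9 in lens and 77.7 in αTN4, and around it lay 3 lens and 14 αTN4 peaks within 50 kb, 12 of the latter αTN4-only. Fosl1, Fosl2 and Atf3 were marked in both. Atf3 ranked 95.8 in lens and 76.9 in αTN4, and around it 6 lens and 13 αTN4 peaks were found. Around Jund (10 and 9), Maff (15 and 14) and Batf (4 and 2) lens had more peaks, and around the other AP-1 genes αTN4 had more. Of the 10 AP-1 genes marked in both, 6 ranked higher in lens and 4 in αTN4. Promoter peaks were wider in lens at 4 and in αTN4 at 6.

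Among 29 genes of cell cycle and replication, 28 were marked in both. The exception was Cdkn1c, which encodes the cyclin kinase inhibitor p57 of newly formed fibre cells, marked in lens alone at rank 67.4 with 3004 bp under peaks and 7 lens-only peaks within 50 kb. Its relatives Cdkn1a and Cdkn1b were marked in both. All 15 housekeeping genes were marked in both, at ranks from 67.9 to 98.6 in lens and from 77.6 to 98.5 in αTN4.

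Genes known as markers of other cell types were also marked in lens. Of 12 genes of retinal neurons, 9 were marked in lens alone, 3 in neither and 0 in αTN4. The 9 included factors of retinal progenitors and young neurons, with Atoh7 at rank 99.4, Neurod1 at 89.8 (8410 bp), Rax at 71.8 (12290 bp) and Otx2 at 59.0. The photoreceptor genes Sag and Rcvrn had no promoter peak in either list. Of 12 endothelial markers, 7 were marked in lens alone, among them the receptor genes Kdr (rank 86.1) and Flt1 (78.2), 1 in both, Pecam1 in αTN4 alone, and Tie1, Emcn and Robo4 in neither. Of 10 general neuron markers, 6 were marked in lens alone and 3 in both. Of 12 genes of cornea and surface epithelium, 6 were in lens alone, among them Grhl3 (75.5) and Esrp1 (78.8), while Krt5 and Krt12 were in neither. Of 9 muscle genes, 4 were in lens alone, 2 in both and 3 in neither. Of 10 liver genes, which the lens should not use, 4 were in lens alone, with Foxa1 at 67.7 and the others between 23.5 and 48.9. Of 14 blood and immune genes 9 were in neither, among them Ptprc, Csf1r, Cd68 and Hbb-b1, while Ikzf1 and Tal1 were in lens alone. Of 10 pigment cell genes, 6 were in neither and 2 in lens alone, Dct at 61.8 and Oca2 at 20.6. Pmel (listed as Si) counts as marked in both through the promoter it has beside Cdk2. H3K4me2 also lies on genes that are silent, and how far other cells in the dissected tissue take part in the lens-only class was not tested.

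**Figure D4:**
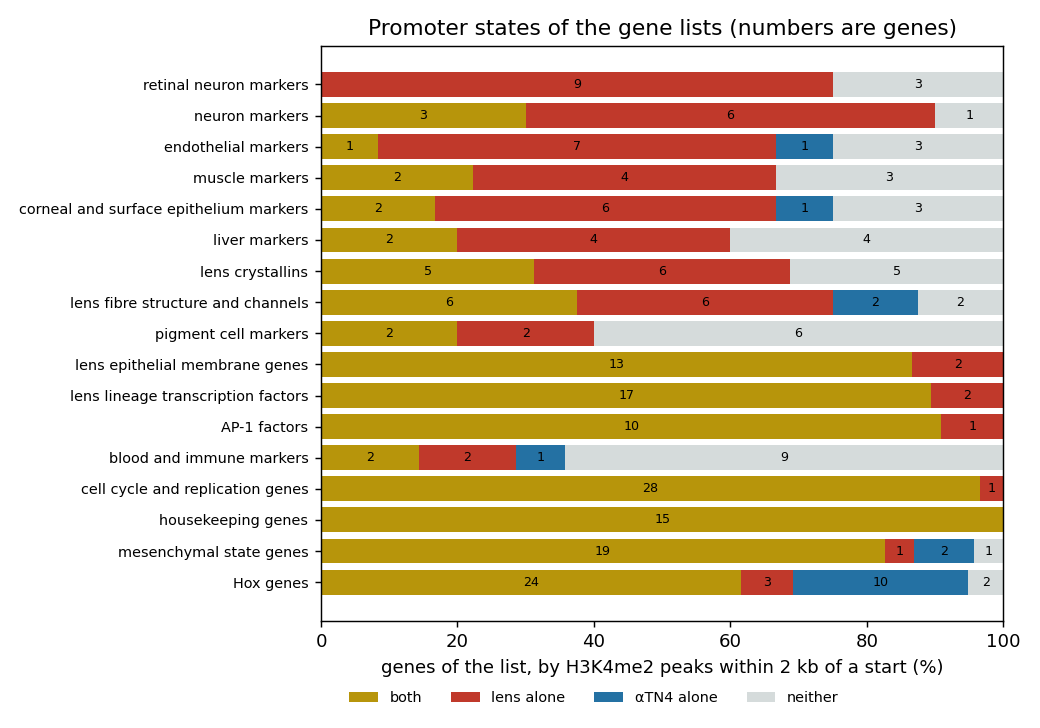
Promoter states of 17 gene lists as shares of each list (x axis, %), with the number of genes written in each segment: marked in both sources (gold), in lens alone (red), in αTN4 alone (blue) or in neither (grey). Retinal neuron markers have the highest lens-alone share, 9 of 12, and Hox genes the highest αTN4-alone share, 10 of 39, against 11.7% and 3.12% of all genes.

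The strongest promoters of each one-sided state were ordered by −log10 q. In lens alone, the highest value, 214.4, belonged to Tmem181b-ps, a copy of a repeated gene whose reads are uncertain. It was followed by Frem2, which encodes an extracellular matrix protein of basement membranes (191.2, 2878 bp), 1700029G01Rik (181.0), Gm2237 (175.5), whose reads may be uncertain too, Enox1 (174.3), Ppp1r3g (172.7) and Kit, a receptor gene (171.0, 3083 bp). Mtus2, Tchh, Sidt1, Adamts3 and Enpp1 followed, with values between 167.7 and 169.3. The Tchh peak (4788 bp) was itself a shared peak. It met an αTN4 peak that lay outside the promoter window of 2 kb, so its lens-alone state rests on that window. All 12 ranked 97.6 or higher in the lens list. In αTN4 alone, the highest were S100a5 (145.5, 6432 bp), Wisp2 (136.7, 7443 bp), Msln, which encodes the surface protein mesothelin (132.7, 8381 bp), Clic3 (132.5) and Tm4sf1 (118.7). Parp10, Prss57, Hoxa6, Anxa8, Hoxb6, Apol9b and Nhlrc4 came next, between 99.98 and 115.6. S100a5 shares its wide peak with S100a4. At Tm4sf1 and Anxa8, 10 αTN4 peaks each lay within 50 kb of the gene, and no lens peak did.

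The strongest αTN4-only peak away from promoters lay in Cd109, which encodes a surface protein, on chr9:78470241-78472440 with a fold of 23.1 over 2200 bp. The next αTN4-only peaks lay at Aqp5 (5193 bp) and Msln, and 12.8 kb upstream of S100a3 (4776 bp). Among the widest lens-only peaks, 1 of 12670 bp lay 9.01 kb from the start of Hmx1, a homeobox gene of the eye and ear, and 1 of 10114 bp lay in an intron of Ccdc85c. Apart from Msln, the widest αTN4-only peaks included 7718 bp in Fndc3b and 7659 bp lying 10.5 kb upstream of Pdgfb, which encodes a growth factor.

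One-sided peaks gathered at some genes. Each peak was given to the gene with the nearest start, and 607 genes had 10 or more lens-only peaks and 853 had 10 or more αTN4-only peaks. The overlap of 161 genes is 26.5% of the first list and 18.9% of the second. Both lists are small parts of the 22232 protein-coding genes, so these overlaps lie well above each list's share of all genes. Those 607 genes held 30.7% of all lens-only peaks, and the 853 held 33.5% of all αTN4-only peaks. Large genes and genes with empty surroundings collect more peaks under this rule, and the order of genes depends on it. When each peak was given to every gene within 50 kb of its body, 3 of the 12 lens genes and 2 of the 12 αTN4 genes named next stayed among the first 12.

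In lens, Casz1, a zinc finger factor gene, led with 66 lens-only peaks over 51.3 kb, against 2 αTN4-only peaks. Zfp608 had 59 and 13, Med13l 50 and 24, Gse1 48 and 4, and Cadm1, which encodes an adhesion molecule, 46 and 15. Sox2, a partner of Pax6 at lens enhancers, had 44 lens-only and 2 αTN4-only peaks. Auts2 had 44 and 0 with no shared peak, and Sdk2 had 41 and 2, also with no shared peak. Their promoters and that of Celf4 (40 and 6) were marked in lens alone. Efna5 stood apart with 41 and 33. Zfhx3 and Arid1b completed the list with 40 and 39 lens-only peaks.

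In αTN4, Myc, the proto-oncogene, led with 47 αTN4-only peaks over 50.5 kb, against 4 lens-only peaks. Only 11 αTN4-only peaks lay within 200 kb of Myc. Pde4d had 45 and 14, Gata3 43 and 5, Cited2 43 and 6, and Eltd1 42 and 3, although the Eltd1 promoter was marked in lens alone. The Notch ligand gene Jag1 had 41 and 6, Thbs1, which encodes the matrix protein thrombospondin, 41 and 1, and Klf6 38 and 2. 5930403N24Rik had 39 and 7, Ebf1 38 and 16, Lphn2 39 and 29, and Gm355 37 and 2. At Gata3, Jag1, Myc, Cited2, Thbs1 and Klf6 the promoters were marked in both sources. The same was true of Casz1, Gse1 and Sox2 in lens.

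**Figure D5:**
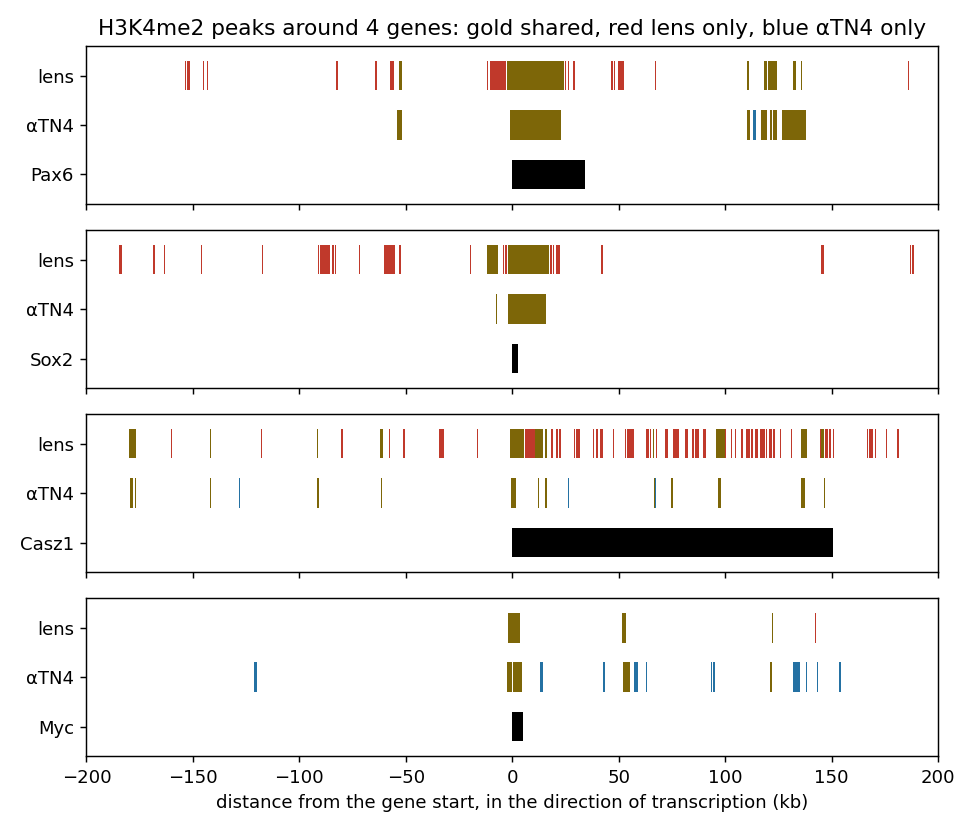
H3K4me2 peaks of lens and αTN4 within 200 kb of the starts of Pax6, Sox2, Casz1 and Myc (x axis, kb in the direction of transcription), with the gene in black, shared peaks in gold, lens-only in red and αTN4-only in blue. Lens-only peaks number 22, 31, 69 and 1 at the 4 genes and αTN4-only peaks 2, 0, 4 and 11.

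The Pax6 locus was wider in lens than its common core. Both lists covered the gene with their widest peak, and in lens a further peak of 7663 bp (chr2:105498589-105506251, fold 25.8, rank 90.9) lay just upstream, with its summit 7.18 kb before the start, where αTN4 had none. Within 50 kb of the gene body, lens-only peaks continued downstream to 67.4 kb from the start, the largest of them 2610 bp wide with its summit 52.0 kb from the start. Within 50 kb of the gene, lens had 12 peaks over 41.1 kb and αTN4 had 1 peak over 23.9 kb. Sox2 showed the same order, with 13 peaks over 29.6 kb in lens and 3 over 18.3 kb in αTN4. At Prox1, lens had 18 peaks over 26.1 kb, 9 of them lens-only, and αTN4 had 5 peaks over 22.0 kb. The intronic Prox1 peak on chr1:191972046-191974421 was shared and ranked 90.2 in αTN4 and 61.1 in lens. Around Fosl1, an AP-1 gene, the reverse held, with 9 lens peaks over 19.3 kb, 1 of them lens-only, and 13 αTN4 peaks over 34.4 kb, 4 of them αTN4-only. Most of these peaks lay nearest to starts of other genes, such as Drap1, Fibp and Mus81. The Fosl1 promoter itself ranked 91.95 in lens and 83.36 in αTN4. At Plekha1, αTN4 had a peak on chr7:137998539-138000373 (fold 12.1, rank 71.6) that lens lacked, with its summit 9.62 kb before the start. In turn lens had peaks of 344 and 812 bp that αTN4 lacked, 22.6 and 30.1 kb past the start. Between these lay an αTN4-only peak of 1175 bp, 27.5 kb past the start. Within 50 kb of the Plekha1 gene, αTN4-only peaks outnumbered lens-only peaks. An upstream peak with its summit 27.75 kb before the start in lens and 27.93 kb in αTN4 was shared.

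The base content and words at the summits separated the classes away from promoters. Windows reached 200 bp to either side of the summit, and windows of the same length centred 3 kb to both sides served as the local background. CpG averaged 8.33 per window at lens-only peaks and 4.01 at αTN4-only peaks, with 4.86 and 3.98 in their side windows. G and C made up 49.5% and 45.5%. At shared peaks CpG averaged 10.1 in the lens list and 8.90 in the αTN4 list. The αTN4-only windows were thus as poor in CpG as their surroundings, and the other classes were richer.

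The AP-1 word TGANTCA, which Fos and Jun proteins bind, was present in 27.0% (26.5 to 27.5) of 36585 αTN4-only windows and 12.3% of their side windows. In the 25382 lens-only windows it was present in 9.42% (9.06 to 9.78), below the 11.7% of their side windows. Shared windows held it in 15.7% of the lens list, against 11.4% beside them, and in 12.6% of the αTN4 list, against 10.6%. The ratio of αTN4-only to lens-only was 2.87 (2.75 to 2.99). At promoters the order was the same, with the word in 21.3% of αTN4-only and 6.18% of lens-only windows. The classes also differ in CpG content, as given above, and its part in the difference was not tested.

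Other words common at the summits differed less. Of the 17 words searched on both strands, the Runx word TGTGGTT was present in 11.5% of αTN4-only windows (side windows 9.70%) and 6.86% of lens-only windows (9.44%), and the Tead word GGAATG in 26.7% (21.0%) and 22.5% (20.8%). Others leaned to lens. A pair of rare words did so most, in ratio. A word of Rfx factors was present in 0.56% of lens-only windows (143 windows) and 0.21% of αTN4-only windows (77), with 0.21% beside each, a ratio of 2.68. A word of Nfi factors was present in 30 and 16 windows, a ratio of 2.70 that rests on few windows. The E-box word CAGCTG was present in 29.1% (28.6 to 29.7) of lens-only windows against 18.4% beside them, and in 21.6% (21.2 to 22.0) of αTN4-only windows against 16.8%. The homeodomain word TAATTA was present in 13.2% (12.8 to 13.6) of lens-only windows and 9.64% (9.34 to 9.94) of αTN4-only windows, where the side windows held 10.8% and 11.7%. The Meis word TGACAG was present in 31.7% and 28.0%, with 25.9% and 25.1% beside them. A word of the insulator protein CTCF lay in 7.27% and 4.84% of windows, with 5.46% and 4.82% beside them. The Maf word TGCTGAC, which shares letters with TGACTCA, was present in 8.67% and 7.67%, with 6.26% and 5.85% beside them. The Sox word ACAAAG was present in 34.7% and 32.4%, with 30.69% and 31.65% beside them. The other Sox word searched, ACAATG, did not lean to lens, with 21.84% and 21.98%, and 20.19% and 21.73% beside them. A word is only a run of letters, and its presence does not show that a factor is bound.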

How the data were processed

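H3K4me2 of 1 newborn lens library and 1 control αTN4 library was read from lists of peaks, with αTN4 lists of H3K4me1, H3K4me3, Pol2 and Pax6 KD H3K4me2 beside them. Alignment to mm9 was done by the authors with Bowtie. They called peaks with MACS2, and H3K4me1 islands with SICER, at default settings, and removed blacklisted regions. Versions are not given in the sources used here. The authors deposited each peak with its fold enrichment over local background and with −log10 p and −log10 q, and fold was compared only as a rank within a list. No counts of reads were used, and the depth of the peak libraries is unknown. Libraries were assigned by their titles. In the labels the antibody entries of the control Pax6 and Pol2 libraries are the reverse of the titles, so values of Pol2 rest on the title.

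Overlaps, places (GENCODE vM1 on mm9, peaks with no promoter placed by their summit) and words were computed with pandas 2.3.3, NumPy 2.4.6, SciPy 1.17.1 and pysam 0.24.0 in Python 3.11.15, with samtools 1.23.1 for the genome and matplotlib 3.10.9 for figures, and the overlap and word counts were tested on simulated data. Shares have 95% Wilson intervals. With 1 library a side, no test was made.

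Named were the 10 strongest one-sided peaks of each list by −log10 q, the 5 widest and the 5 widest one-sided, the 12 strongest promoters of each one-sided state, the 12 genes with the most one-sided peaks, the members of 17 gene lists and 5 loci, with examples given in the text. The 5 pairs of most unequal width each way, the map of Sox2, the CpG content of promoters and the windows whose sequence is printed were chosen after the values were seen. Members, lists and loci were chosen with earlier results of these data known. Of the lists, only Sox1 was not found in the annotation. The annotation gives Fgfr2 an implausibly long record, so its neighbourhood is not described. The RNA-seq, input and other Pax6 KD libraries were not used here. Some named members are not reported here.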

Additional observations from a re-analysis of the deposited data

How the results depend on the processing

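No paired analysis was possible because each source has 1 library, and for the same reason no library could be left out. The share of lens peaks that were shared was 44.4% when 50% of the shorter peak had to be covered, 50.8% when a gap of up to 1 kb counted, 49.1% and 58.5% with a −log10 q of at least 5 and at least 10 in both lists, 50.2% and 62.7% when the threshold applied to the lens list alone, 58.1% for the 30000 strongest peaks of each list, and 43.2% when αTN4 peaks had to recur in Pax6 KD cells, an alternative chosen after seeing the data. For αTN4 peaks the values in this order were 40.2%, 45.4%, 44.4%, 53.0%, 45.8%, 58.1%, 66.2% and 47.2%, so that lists of equal size gave αTN4 the higher share. Both shares moved within their intervals on chromosomes 1 to 19. With promoter windows of 1 kb, 5 kb, starts of all transcripts, or a −log10 q of at least 5, promoters were met by 59.2%, 68.5%, 67.1% and 66.5% of shared lens peaks, 13.7%, 26.4%, 22.8% and 19.7% of lens-only and 3.52%, 14.1%, 10.4% and 6.39% of αTN4-only peaks, in the same order of classes each time. Median widths at that threshold were 1344, 610 and 777 bp. The counts of promoters marked in lens alone, in αTN4 alone and in both stayed within 1.5-fold under every alternative run. The AP-1 ratio was 2.62 for windows of 100 bp to either side and 3.57 for matches per kb of whole peak. Giving each peak to every gene within 50 kb of its body left 3 of the 12 lens genes and 2 of the 12 αTN4 genes among the first 12, and 9 and 2 among the first 100, so the ranking of genes depends on the rule, above all in αTN4. Unknown depth limits every count: a weak peak absent from a list may have been missed.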

Other observations

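Families of 15 or more genes with the same leading letters of the symbol were counted after the promoter states had been seen, and are given as a description. The share of promoters marked in lens alone was 8 of 15 for Pou genes, which encode homeodomain factors of neural and sensory lineages, and 8 of 15 for the Kcnj potassium channel genes. It was 10 of 22 for Fgf genes, which encode growth factors, and 8 of 18 for Sox genes, against 11.7% of all genes. In αTN4 alone the counts in these families were 0, 1, 1 and 0.

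One-sided peaks were also counted in windows of 1 Mb. The window with the most lens-only peaks was that of Casz1 on chromosome 4, with 91 lens-only and 17 αTN4-only peaks. The window with the most αTN4-only peaks lay on chromosome 2 around Cebpb, which encodes a factor of the C/EBP family, with 94 αTN4-only peaks over 88.9 kb and 21 lens-only peaks. It was followed by the window of Cald1, the gene of the actin-binding protein caldesmon, on chromosome 6, with 74 and 11.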
